A study of Mus musculus with 8 samples.

Results

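Neuropeptides and granins are the cargo of dense-core vesicles, and 10 genes that encode them in the dentate gyrus were examined here. The genes were Npy, Sst, Cort, Cck and Tac1, whose peptides are best known from GABAergic interneurons of the hippocampus, and Penk, Pdyn, Vgf, Scg2 and Adcyap1, which were taken as the peptides and granins of granule cells. The members were chosen by name, as the probes whose symbol in the platform's probe table equals the gene. They make up 10 of 19321 genes with a symbol on the array. Where a gene had several probes, which was the case only for Tac1 with 2, the one with the highest mean spot intensity over the 8 arrays was kept. All 10 members were among the 21150 probes tested, Vgf because it was detected on just enough arrays.

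Each of 8 single-colour arrays read total RNA from dorsal dentate gyrus, 4 labelled WT and 4 labelled Cav3.1 KO. All samples came from male mice of 8 to 12 weeks, and the strain of both groups is given as C57BL/6J. Cav3.1 is the low-voltage-activated (T-type) calcium channel pore encoded by Cacna1g. The labels name no promoter, Cre line or deleted exon, and they speak of slices without stating that each array is a separate mouse, so p-values speak only to the variation among these samples, part of which may be technical. No treatment is given for either group.

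Granule cells are the principal neurons of the dentate gyrus, and GABAergic cells of the hilus inhibit their dendrites and cell bodies. Peptide precursors are cut by proprotein convertases inside dense-core vesicles, and the mature peptides are released during strong activity and act on G-protein-coupled receptors. NPY and somatostatin are co-stored in hilar interneurons that target granule cell dendrites, enkephalin and dynorphin are stored in mossy fibres, and several of these genes are known to respond to neuronal activity through the transcription factor CREB.

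The arrays differed somewhat in raw brightness. Mean blank spots lay between 53.0 and 63.4, each array detected at least 85.4% of its probes, and any 2 arrays correlated across probes with r from 0.991 to 0.997. WT blank means ranged from 53.0 to 59.7 and Cav3.1 KO blank means from 56.2 to 63.4. The file headers also give the slope between the scan gains, which fell into 2 sets. WT replicates 1, 2 and 4 and Cav3.1 KO replicate 1 had slopes of 0.244 to 0.247, called steeper here, and the other 4 arrays had 0.235 or 0.236, called shallower. Raw brightness followed these sets, which are spread unequally over the groups. Median spot intensities of the probes were 80.9 to 87.4 on the steeper arrays and 90.2 to 94.3 on the shallower ones. Blank means were 53.0 to 56.2 and 59.7 to 63.4. The chip numbers of WT replicate 3 and Cav3.1 KO replicate 4 stand apart from those of the other 6 arrays. These chips detected the smallest shares of probes, 87.0% and 85.4%. The probe of the targeted gene Cacna1g differed by -0.08 (SE 0.0508, limma adjusted p 0.816) with overlapping groups. The sources used here do not say which part of the gene was deleted, so this probe does not check the genotype. Of 18 fixed markers of dentate granule cells, 17 were tested and 17 were detected on all 8 arrays, among them Prox1, the homeobox factor of granule cells, and C1ql2, a synaptic protein of mossy fibres. Of 20 tested GABAergic interneuron markers, 20 were detected on all 8 arrays. So were 19402 of all 21150 probes tested, so detection alone does not identify the tissue. The Prox1 probe was dim, with mean spot intensities of 68.5 on WT arrays and 70.2 on Cav3.1 KO arrays.

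Values below are log2 intensities after background correction and quantile normalisation unless called spot intensities, and each difference is the Cav3.1 KO mean less the WT mean. With limma and Benjamini-Hochberg adjustment over all probes, 0 of the 10 members passed the threshold of 0.05, where 0.288% of all probes did (61 of 21150), 0.199% higher and 0.0898% lower in Cav3.1 KO. Before adjustment, 4 of the 10 had a p under 0.05, against 8.1% of all probes. Npy and Cort were the lower ones, where 4.34% of all probes were lower at that p, and Tac1 and Adcyap1 the higher ones, where 3.76% were. The groups did not overlap for 2 of the 10, Npy and Cort, both lower in Cav3.1 KO, against 4.95% of all probes in either direction, 2.53% lower and 2.42% higher. These shares are a description, since the members were picked with earlier results known. The same shares stand beside the counts of the other lists below. Of all 21150 probes, 10434 were higher and 10716 lower in Cav3.1 KO at any p. The median difference was -0.15 over the 5 interneuron peptides and -0.0099 over the 5 granule-cell genes, against -0.00078 over all probes tested.

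**Figure D1:**
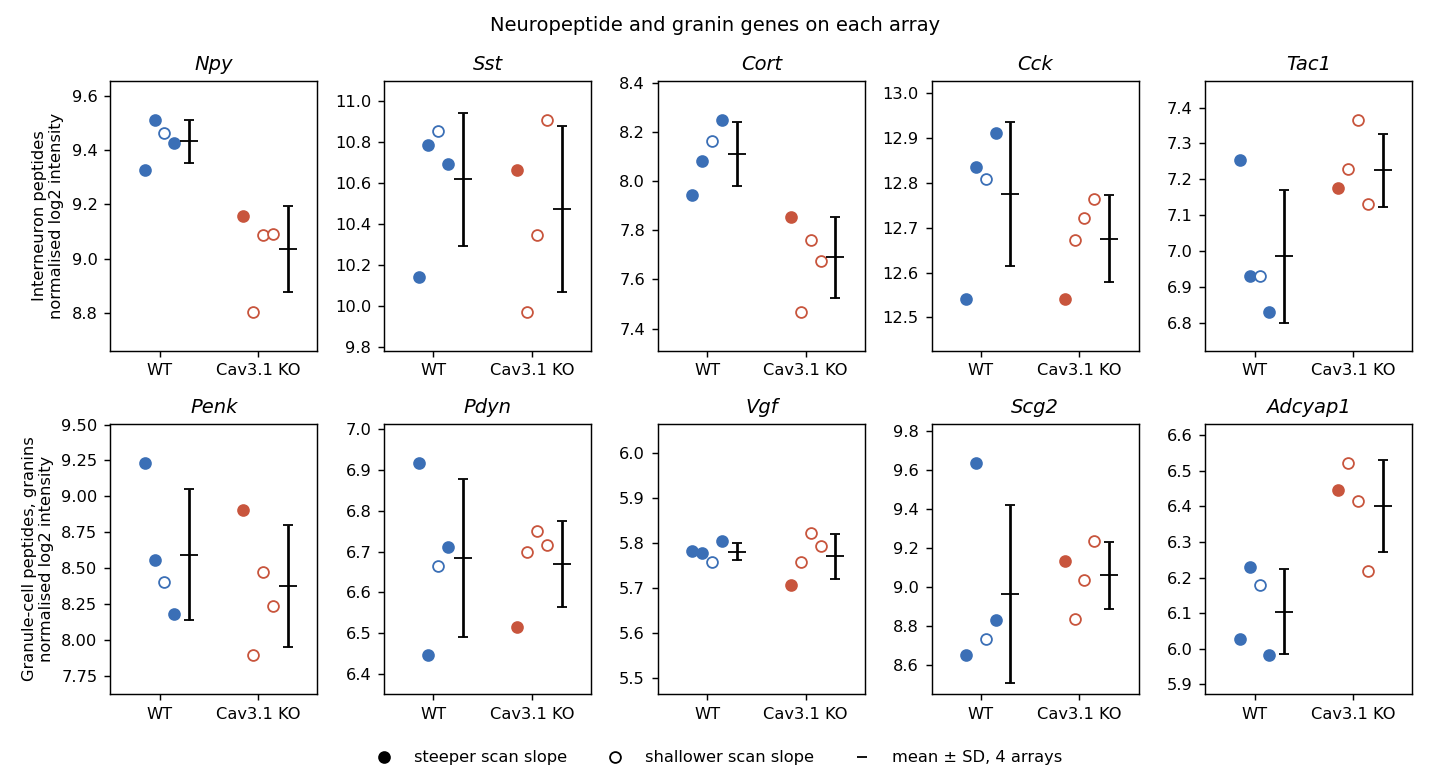
Normalised log2 intensity of each gene (vertical axis, scaled per gene) on the 4 WT and 4 Cav3.1 KO arrays, with the mean and SD of each group. Filled points are arrays with the steeper scan slope and open points those with the shallower one. For Npy all Cav3.1 KO points, at 8.80 to 9.16, lie below all WT points, at 9.33 to 9.51, and the same holds for Cort.

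Npy encodes neuropeptide Y, an inhibitory peptide of hilar interneurons. On the WT arrays its probe read 9.33, 9.51, 9.46 and 9.43 in replicates 1 to 4, and on the Cav3.1 KO arrays 9.16, 8.80, 9.09 and 9.09. Every Cav3.1 KO array was below every WT array, with Cav3.1 KO replicate 2 the lowest of all. The probe was bright, with spot intensities of 625 to 797 on WT arrays and 472 to 567 on Cav3.1 KO arrays. The means were 9.43 ± 0.0787 (SD, n = 4) and 9.04 ± 0.158 (SD, n = 4), a difference of -0.40 (SE 0.0787, 95% interval -0.58 to -0.22), or 0.760 times the WT level on this scale. The limma adjusted p was 0.130, so the difference did not pass over all probes. The exact two-sided permutation p was 0.0286, the smallest that 4 against 4 arrays allow. By unadjusted p, Npy ranked 156th of the 21150 probes.

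Cort encodes cortistatin, a relative of somatostatin that binds somatostatin receptors and is made by a subset of GABAergic neurons. Its probe read 7.94, 8.08, 8.16 and 8.25 on WT replicates 1 to 4, and 7.85, 7.47, 7.76 and 7.68 on Cav3.1 KO replicates 1 to 4. The groups did not overlap, although the highest Cav3.1 KO array and the lowest WT array were close. The means were 8.11 ± 0.13 (SD, n = 4) and 7.69 ± 0.165 (SD, n = 4), a difference of -0.42 (SE 0.0925, 95% interval -0.63 to -0.21), with a limma adjusted p of 0.170 and an exact permutation p of 0.0286. Cav3.1 KO replicate 2 was again the lowest array. Across the 8 arrays the gene most like Cort of 16352 compared was Npy, with a Pearson r of 0.95 that includes the difference between the groups.

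Both differences had the same sign in each set of arrays. For Npy the difference was -0.26 (SE 0.088) among the arrays of the steeper scan slope, 3 WT and 1 Cav3.1 KO, and -0.47 (SE 0.139) among those of the shallower slope, 1 WT and 3 Cav3.1 KO. For Cort the values were -0.24 (SE 0.133) and -0.53 (SE 0.128). With the scan slope set as a block they were -0.37 for Npy and -0.38 for Cort, with limma adjusted p-values of 0.275 and 0.330. Within the 6 arrays of earlier chip numbers Npy differed by -0.41 and Cort by -0.40, and between the 2 later chips by -0.37 and -0.49. Without Cav3.1 KO replicate 2 the differences were -0.32 and -0.35.

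Sst encodes somatostatin, the peptide that marks the hilar cells innervating granule cell dendrites. Its probe read 10.14, 10.79, 10.85 and 10.69 on WT replicates 1 to 4 and 10.66, 9.97, 10.35 and 10.91 on Cav3.1 KO replicates 1 to 4. The highest array and the lowest array were both Cav3.1 KO, and the groups overlapped throughout. The difference was -0.15 (SE 0.225, 95% interval -0.66 to 0.37, limma adjusted p 0.976). This interval also holds the difference measured for Npy, and whether Sst and Npy differ in response was not tested. Without Cav3.1 KO replicate 2 the difference of Sst was 0.02.

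The promoters printed here are the 250 bases before the start of the gene on the coding strand, 5′ to 3′, from RefSeq (GRCm38.p6), shown for the pair of genes whose groups did not overlap and for the pair of members that hold the whole cyclic AMP response element. Capitals mark matches to its half-site TGACG on either strand, and the palindrome TGACGTCA is a pair of overlapping half-sites.
Npy, chr6:49822460-49822709, forward strand: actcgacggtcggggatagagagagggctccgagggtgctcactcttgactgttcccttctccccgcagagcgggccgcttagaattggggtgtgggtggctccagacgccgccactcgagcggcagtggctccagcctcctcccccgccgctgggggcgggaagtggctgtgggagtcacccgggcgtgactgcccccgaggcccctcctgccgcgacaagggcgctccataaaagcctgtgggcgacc
Cort, chr4:149126764-149127013, reverse strand: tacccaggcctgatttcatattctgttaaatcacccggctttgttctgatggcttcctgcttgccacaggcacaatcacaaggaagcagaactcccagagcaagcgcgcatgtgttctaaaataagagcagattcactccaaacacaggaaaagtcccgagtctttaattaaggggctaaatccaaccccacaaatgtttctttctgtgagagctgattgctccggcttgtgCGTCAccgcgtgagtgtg
Sst, chr16:23890845-23891094, reverse strand: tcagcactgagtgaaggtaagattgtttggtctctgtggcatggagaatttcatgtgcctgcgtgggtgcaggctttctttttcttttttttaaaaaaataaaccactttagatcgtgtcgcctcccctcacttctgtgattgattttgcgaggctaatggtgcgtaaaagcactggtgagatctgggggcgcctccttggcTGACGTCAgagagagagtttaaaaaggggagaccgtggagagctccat
Scg2, chr1:79440027-79440276, reverse strand: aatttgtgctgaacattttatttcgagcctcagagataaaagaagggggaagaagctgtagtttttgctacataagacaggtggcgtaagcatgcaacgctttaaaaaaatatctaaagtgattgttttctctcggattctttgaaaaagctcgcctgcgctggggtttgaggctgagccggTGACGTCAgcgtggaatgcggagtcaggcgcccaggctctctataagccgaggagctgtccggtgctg
Of the 10 members, 8 had a promoter entry, with Penk and Vgf not among them. The palindrome was found in 2 members, 48 bases before the start in Sst and 68 bases before it in Scg2, where 1.56% of 32536 promoter windows of this length hold it. The half-site was found in 6 of the 8, namely Sst, Cort, Cck, Tac1, Scg2 and Adcyap1, against 17.9% of all windows. The first count is by gene, where Pdyn and Adcyap1 had 2 windows each, and the share is by distinct window. In Cort the half-site began 18 bases before the start, and the windows of Npy and Pdyn held no match. A match is a run of letters and not a measured binding site.

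Cck encodes cholecystokinin, made by a class of basket cells and also by pyramidal neurons. It had spot intensities of 6397 to 8274 on WT arrays and 5081 to 6835 on Cav3.1 KO arrays. On the normalised scale WT ranged from 12.54 to 12.91 and Cav3.1 KO from 12.54 to 12.76, and the lowest array of each group had the same value. The difference was -0.10 (SE 0.083, 95% interval -0.29 to 0.09, limma adjusted p 0.920).

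Tac1 encodes the precursor of substance P and neurokinin A, which is made by some hippocampal interneurons and strongly by neurons of the habenula and striatum. Its probe read 7.25, 6.93, 6.93 and 6.83 on WT replicates 1 to 4 and 7.18, 7.23, 7.37 and 7.13 on Cav3.1 KO replicates 1 to 4. A single WT array, replicate 1, lay within the Cav3.1 KO range, and the other 3 were below all Cav3.1 KO arrays. The difference was 0.24 (SE 0.093, 95% interval 0.03 to 0.45), with a limma adjusted p of 0.549 and an exact permutation p of 0.114. Its second probe differed by 0.27 (SE 0.102, limma adjusted p 0.530). Without WT replicate 1 the difference of the kept probe was 0.33 (limma adjusted p 0.170).

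**Figure D2:**
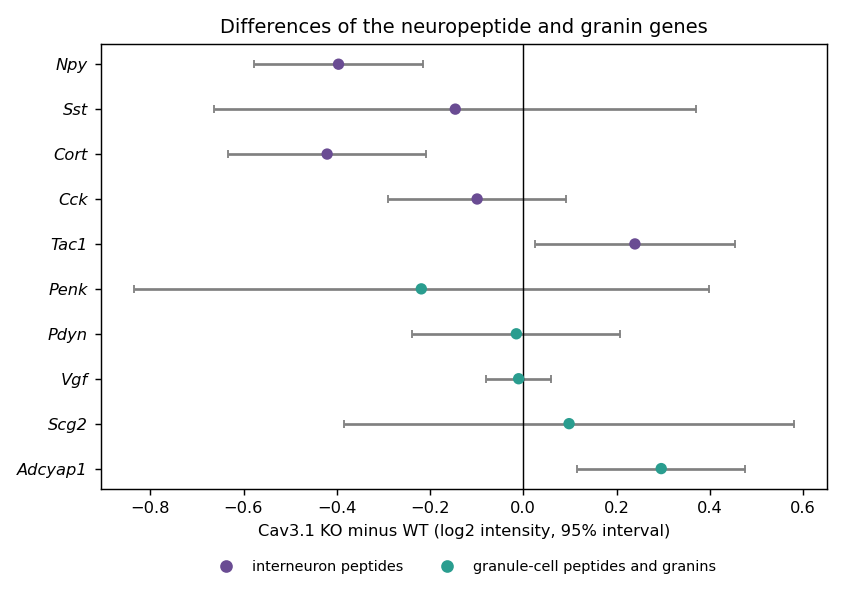
Difference between Cav3.1 KO and WT in log2 intensity (horizontal axis) for each gene, with its unadjusted 95% interval from limma over 4 arrays a group. The intervals of Npy and Cort lie below 0 and those of Tac1 and Adcyap1 above 0, while those of the other 6 genes cross 0.

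Adcyap1, which encodes the peptide PACAP, an activator of adenylyl cyclase, was the granule-cell group's member with the smallest p. Its probe read 6.03, 6.23, 6.18 and 5.98 on WT replicates 1 to 4 and 6.45, 6.52, 6.42 and 6.22 on Cav3.1 KO replicates 1 to 4. The lowest Cav3.1 KO array, replicate 4, lay just under the highest WT array, and the other 3 were above all WT arrays. The difference was 0.30 (SE 0.0784, 95% interval 0.12 to 0.48), with a limma adjusted p of 0.269 and an exact permutation p of 0.0571. The probe was dim, with spot intensities of 64.6 to 81.2 on WT arrays and 82.4 to 104.0 on Cav3.1 KO arrays, while the blank spots averaged 53.0 to 63.4. The size therefore depended on the treatment of background. It was 1.02 after subtraction of the mean blank spot and 0.96 in the authors' value table, neither past the threshold. Within the 6 arrays of earlier chip numbers it was 0.38 and between the 2 later chips 0.038.

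Penk, the precursor of the enkephalins, had the largest SE of the 10 members. It read 9.23, 8.56, 8.40 and 8.18 on WT replicates 1 to 4 and 8.91, 7.89, 8.47 and 8.23 on Cav3.1 KO replicates 1 to 4. The groups covered much the same range, and replicate 1 was the highest array in each, which is a shared number and not a shared animal. The difference was -0.22 (SE 0.268, 95% interval -0.84 to 0.40, limma adjusted p 0.967). An interval this wide leaves a difference of 0.40 in size within it on either side.

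Pdyn encodes the precursor of the dynorphins, opioid peptides of the mossy fibres. Its spot intensities were 92.9 to 121 on WT arrays and 88.6 to 117 on Cav3.1 KO arrays. The normalised values ran from 6.45 to 6.92 on WT arrays and from 6.51 to 6.75 on Cav3.1 KO arrays, so the groups overlapped. The difference was -0.015 (SE 0.097, 95% interval -0.24 to 0.21, limma adjusted p 0.997).

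Scg2 encodes secretogranin II, a granin that helps to form dense-core vesicles and is the source of the peptide secretoneurin. It read 8.65, 9.64, 8.74 and 8.83 on WT replicates 1 to 4 and 9.14, 8.84, 9.04 and 9.24 on Cav3.1 KO replicates 1 to 4. WT replicate 2 was the highest of all 8 arrays, and the other 3 WT arrays lay below the lowest Cav3.1 KO array, which was close to WT replicate 4. The difference was 0.10 (SE 0.21, 95% interval -0.39 to 0.58, limma adjusted p 0.986), and without WT replicate 2 it was 0.32 (limma adjusted p 0.283). Of the 10 members, Scg2 moved furthest when a single array was left out.

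Vgf encodes a neurotrophin-induced secreted granin. Its probe was near the blank level, with spot intensities of 55.3 to 60.7 on WT arrays and 55.8 to 64.9 on Cav3.1 KO arrays, and it was detected on 4 of the 8 arrays, WT replicates 1, 2 and 4 and Cav3.1 KO replicate 3. The difference of -0.0099 (SE 0.0306, limma adjusted p 0.995) compares arrays of which 4 give no more than a bound, so a change of Vgf was not measurable with this probe.

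**Figure D3:**
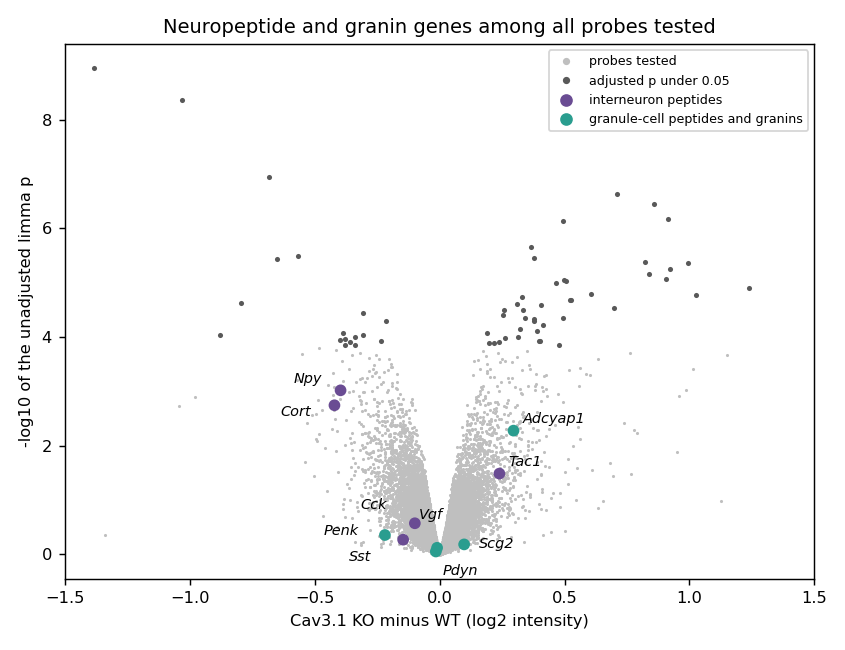
Difference between Cav3.1 KO and WT (horizontal axis, log2 intensity) against the negative log10 of the unadjusted limma p (vertical axis) for all 21150 probes tested, with 1 probe outside the plotted range of 1.5 on either side. The 61 probes past the adjusted threshold are dark, and the 10 neuropeptide and granin genes, in colour, all lie below them.

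Other markers of GABAergic interneurons were compared beside their peptides. In Cav3.1 KO, 13 of 20 tested markers were higher and 7 lower. Their median difference was 0.0092, and 0 passed by limma, with 1 higher and 1 lower at an unadjusted p under 0.05. Gad1 and Gad2, the GABA-synthesising enzymes, differed by 0.11 (SE 0.184) and 0.14 (SE 0.115). Slc32a1, the vesicular GABA transporter, differed by 0.06 (SE 0.0835), and Lhx6, a transcription factor of interneurons from the medial ganglionic eminence, by 0.13 (SE 0.0642). Pvalb, the parvalbumin gene, differed by 0.25 (SE 0.104, limma adjusted p 0.585). The largest difference below 0 was that of Crhbp, the binding protein of corticotropin-releasing hormone, at -0.35 (SE 0.109, limma adjusted p 0.379). The summed linear level of the list ran from 3438 to 3878 on WT arrays and from 3545 to 4454 on Cav3.1 KO arrays, so the groups overlapped, and the highest array was Cav3.1 KO replicate 4. In dissected tissue, fewer cells of a type and less RNA per cell cannot be told apart, for Npy and Cort as for these markers.

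**Figure D4:**
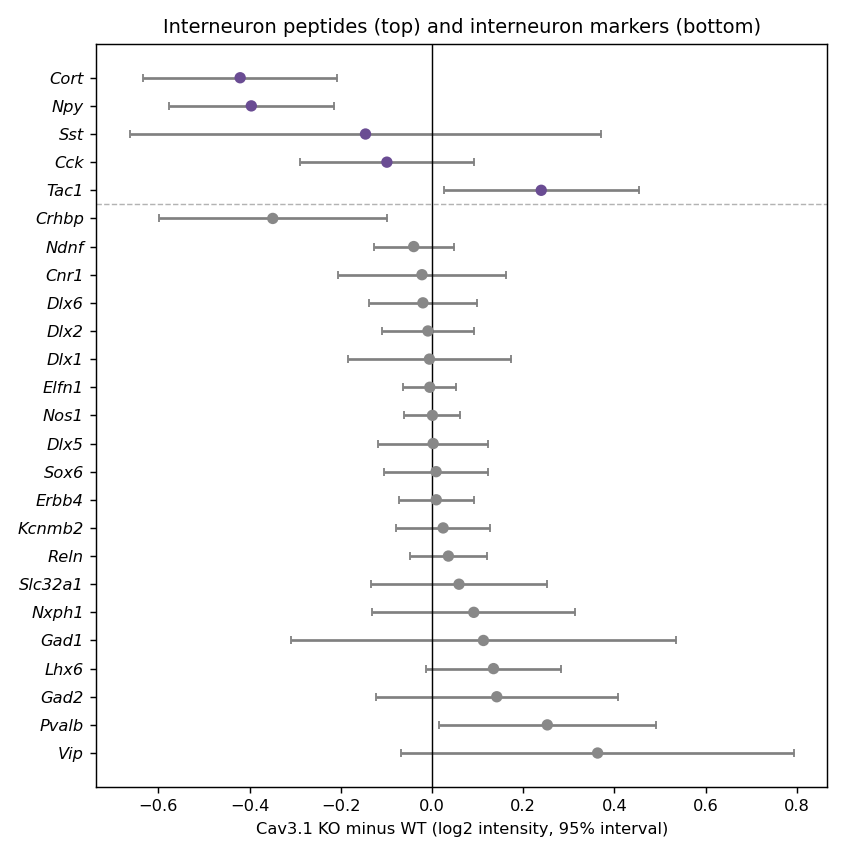
Difference between Cav3.1 KO and WT in log2 intensity with its unadjusted 95% interval for the 5 interneuron peptides (above the dashed line) and the 20 tested interneuron markers (below it), each sorted by size. Npy and Cort lie at -0.40 and -0.42. Of the markers, 13 lie above 0 and 7 below, from -0.35 for Crhbp to 0.36 for Vip, with a median of 0.0092.

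Of 17 tested granule cell markers, 14 lay below the WT mean in Cav3.1 KO, and the median difference was -0.07. By limma over all probes a single marker fell, C1ql2, by 0.57 (SE 0.0509, limma adjusted p 0.0065), where 0.0898% of all probes fell. At an unadjusted p under 0.05, 6 were lower and 1 higher, against 4.34% and 3.76% of all probes. The groups did not overlap for 6 lower markers, C1ql2 among them, against 2.53% of all probes. They also did not overlap for 1 higher marker, Calb1 (0.34), against 2.42%. The list mean ranged from 7.16 to 7.26 on WT arrays and from 7.02 to 7.15 on Cav3.1 KO arrays, so the groups did not overlap. The summed level of the list, from 3516 to 3922 and from 3179 to 3848, did overlap. The list means of the 5 granule-cell peptides and granins overlapped between the groups, with 7.10 to 7.33 on WT arrays and 7.14 to 7.34 on Cav3.1 KO arrays. The part of granule cell content in these values was not tested.

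Neighbouring tissue also varied between the arrays. The summed level of choroid plexus and ependyma markers varied widely, from 5580 to 38094 on WT arrays and from 770 to 33534 on Cav3.1 KO arrays. Of 9 tested, 8 were lower and 1 higher in Cav3.1 KO, and 0 passed by limma. Markers of thalamus and habenula, of which the habenula makes much Tac1, were higher in Cav3.1 KO for 18 of 21 tested genes, of which 0 passed by limma and 1 had an unadjusted p under 0.05. The highest list means, 7.50 and 7.51, belonged to replicates 2 and 3 of Cav3.1 KO. WT replicates 1 and 2 followed with 7.11 and 7.13, and the other 4 arrays lay between 6.67 and 6.84. Slc17a6, the vesicular glutamate transporter of thalamic neurons, differed by 0.95 (limma adjusted p 0.380) with groups that did not overlap, and Gpr151, a receptor gene of the habenula, by 0.66 (limma adjusted p 0.751). Their summed level ranged from 2568 to 4006 on WT arrays and from 2917 to 5561 on Cav3.1 KO arrays, and 19 of the 21 markers were detected on all 8 arrays. Without Cav3.1 KO replicates 2 and 3 the difference was 0.17 for Tac1, 0.23 for Adcyap1, -0.31 for Npy, -0.35 for Cort and 0.17 for Sst, and 0 of these passed.

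Markers of the striatum, where Penk, Pdyn and Tac1 are abundant, had a list mean of 6.61 on WT replicate 1 and 6.42 to 6.48 on the other 7 arrays. Their summed level over 9 tested markers was 1045 to 1417 on WT arrays and 1063 to 1168 on Cav3.1 KO arrays, 7 of the 9 were detected on all 8 arrays, and 3 were higher and 6 lower in Cav3.1 KO. WT replicate 1 was also the highest WT array for Penk, Pdyn and Tac1. Without that array the difference was -0.0054 for Penk, 0.06 for Pdyn and 0.33 for Tac1. Markers of the neocortex were higher in Cav3.1 KO for 9 of 10 tested genes, with list means of 6.99 to 7.10 on WT arrays and 7.12 to 7.40 on Cav3.1 KO arrays. These list means did not overlap, while 0 of the genes passed by limma or had an unadjusted p under 0.05. The part of these tissues in the values of the members was not tested.

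Other precursors of neuropeptides numbered 27 tested of 35 listed, 18 of them higher in Cav3.1 KO and 9 lower, and their median difference was 0.04. The list mean was 6.73 to 6.80 on WT arrays and 6.84 to 6.93 on Cav3.1 KO arrays, so the groups did not overlap. How often the means of other lists of this size separate was not tested, and this list includes Tac2, described below. By limma over all probes 1 rose and 0 fell, where 0.199% of all probes rose, and 5 were higher and 0 lower at an unadjusted p under 0.05. The gene that rose was Nppc, the precursor of C-type natriuretic peptide, which acts through cyclic GMP. It read 6.71, 6.67, 6.87 and 6.73 on WT replicates 1 to 4 and 7.34, 7.28, 7.13 and 7.33 on Cav3.1 KO replicates 1 to 4. The groups were well apart, with a difference of 0.53 (SE 0.0602, limma adjusted p 0.017). Its spot intensities were 103 to 130 on WT arrays and 147 to 171 on Cav3.1 KO arrays, and the size depended on the treatment of background. With a background offset of 16 the difference was 0.72, and after subtraction of the mean blank spot it was 0.90. The call was lost without WT replicate 1 (adjusted p 0.0652), WT replicate 4 (0.0823), replicate 2 (0.0692) or replicate 4 (0.0593) of Cav3.1 KO. It was also lost with the scan slope (limma adjusted p 0.0841) or the replicate number (0.183) set as a block. Within the earlier chip numbers (0.0948) and without both Cav3.1 KO replicates 2 and 3 (0.0622) it was lost too. Adm, the precursor of the vasodilator adrenomedullin, differed by 0.19 (SE 0.0419, limma adjusted p 0.165). Agt, the angiotensinogen gene of astrocytes, differed by 0.50 (SE 0.192, limma adjusted p 0.538). Tac2, the precursor of neurokinin B and also a listed habenula marker, had the largest difference, 1.13 (SE 0.615, limma adjusted p 0.749), with an SD of 1.42 among the Cav3.1 KO arrays and 0.147 among the WT arrays. It is named after its value was seen.

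Receptors for the peptides of the members and their relatives were tested for 19 of 22 genes. A single gene rose, where 0.199% of all probes did, and 0 fell, with 12 higher, 7 lower and a median of 0.03. At an unadjusted p under 0.05, 2 were higher and 0 lower, against 3.76% and 4.34% of all probes. Oprl1, which encodes the nociceptin receptor, a relative of the opioid receptors, read 8.56, 8.71, 8.67 and 8.65 on WT replicates 1 to 4 and 8.91, 9.06, 8.96 and 9.03 on Cav3.1 KO replicates 1 to 4. The groups were again apart, and the difference was 0.34 (SE 0.0437, limma adjusted p 0.0267). This call was lost when any single array other than WT replicate 2 or replicate 1 of Cav3.1 KO was left out. The limma adjusted p-values were then 0.0652 to 0.101. It was also lost with the scan slope (0.0965), the chip number (0.0509) or the replicate number (0.0782) set as a block. Within the earlier chip numbers (0.267) and without both Cav3.1 KO replicates 2 and 3 (0.189) it was lost too. The same held after subtraction of the mean blank spot (0.201), with median scaling (0.378) and in the authors' value table (0.477). Pnoc, the precursor gene of the nociceptin receptor's ligand and in the list of precursors, differed by 0.04 (SE 0.0734, limma adjusted p 0.986). Next by p came the somatostatin receptor gene Sstr2, at 0.09 (SE 0.0384, limma adjusted p 0.587). Its probe was dim, with mean spot intensities of 66.7 on WT arrays and 74.9 on Cav3.1 KO arrays. The mu opioid receptor gene Oprm1 followed, at 0.04 (SE 0.0287, limma adjusted p 0.883), and its probe was detected on 5 of 8 arrays.

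Peptide-processing enzymes and granins outside the members had 0 calls by limma. Of 10 tested enzymes 6 were higher and 4 lower, with 3 higher and 1 lower at an unadjusted p under 0.05. The list mean of the enzymes was 7.71 to 7.73 on WT arrays and 7.76 to 7.78 on Cav3.1 KO arrays, so the groups did not overlap. Pcsk1, the convertase of regulated secretion, differed by 0.16 (SE 0.032, limma adjusted p 0.130) with groups that did not overlap, but its probe was dim, with spot intensities of 62.6 to 85.0. Cpd, a carboxypeptidase, differed by -0.22 (SE 0.0694, limma adjusted p 0.381), and Pam, the enzyme that amidates peptides such as NPY and cholecystokinin, by 0.22 (SE 0.0739, limma adjusted p 0.431), again with groups that did not overlap. Of 5 other granins and granin-like proteins 4 were higher and 1 lower, with 2 higher at an unadjusted p under 0.05. Scg3, a vesicle-sorting granin, differed by 0.17 (SE 0.0571, limma adjusted p 0.423), Scg5, the chaperone of the convertase PC2, by 0.30 (SE 0.123, limma adjusted p 0.585), and Pcsk1n, a convertase inhibitor, by 0.14 (SE 0.0705, limma adjusted p 0.694).

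Genes of dense-core vesicle cargo and release also gave 0 calls by limma over 17 tested genes, with 11 higher, 6 lower and 3 higher and 1 lower at an unadjusted p under 0.05. Bdnf, the neurotrophin stored in the same vesicles, differed by -0.51 (SE 0.12, limma adjusted p 0.207), with WT at 7.81 to 8.26 and Cav3.1 KO at 7.24 to 7.70. Baiap3, a priming factor of dense-core vesicles, differed by 0.54 (SE 0.16, limma adjusted p 0.353), and Syt10, a synaptotagmin, by 0.11 (SE 0.0375, limma adjusted p 0.472). The Syt10 probe was dim, with mean spot intensities of 67.1 on WT arrays and 76.0 on Cav3.1 KO arrays.

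Genes of the CREB pathway and immediate early genes were examined because several members respond to activity. Of 16 CREB pathway genes 0 passed by limma, 5 were higher and 11 lower, and 0 were higher and 2 lower at an unadjusted p under 0.05. The stress-response factor gene Atf4 differed by -0.42 (SE 0.0962, limma adjusted p 0.190), Creb1 by -0.16 (SE 0.0596, limma adjusted p 0.540) and Atf1 by -0.05 (SE 0.0248, limma adjusted p 0.698). Of 20 immediate early genes 0 passed by limma, with 14 higher and 6 lower and with 4 higher and 3 lower at an unadjusted p under 0.05. The phosphatase gene Dusp1 differed by 0.96 (SE 0.197, limma adjusted p 0.147), Bdnf by the value above, and the early transcript Ier2 by 0.30 (SE 0.0891, limma adjusted p 0.340). The list mean of immediate early genes ranged from 7.04 to 7.30 on WT arrays and from 7.15 to 7.38 on Cav3.1 KO arrays.

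For each member, the gene most like it across the 8 arrays was sought among 16352 genes, as a description with no test. These were Dnal4 for Npy (r = 0.98), Itgav for Sst (r = 0.97), Npy for Cort (r = 0.95), Hivep2 for Cck (r = 0.93) and Apoa2 for Tac1 (r = 0.96). For the granule-cell group they were Olfr108 for Penk (r = 0.93), Fignl1 for Pdyn (r = 0.97), Pip5k1c for Vgf (r = 0.95), Ibtk for Scg2 (r = 0.98) and Plpp1 for Adcyap1 (r = 0.98). Cort was the only member whose most alike gene was another member. Each r is the highest of many and rests on 8 arrays that share the normalisation.

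**Figure D5:**
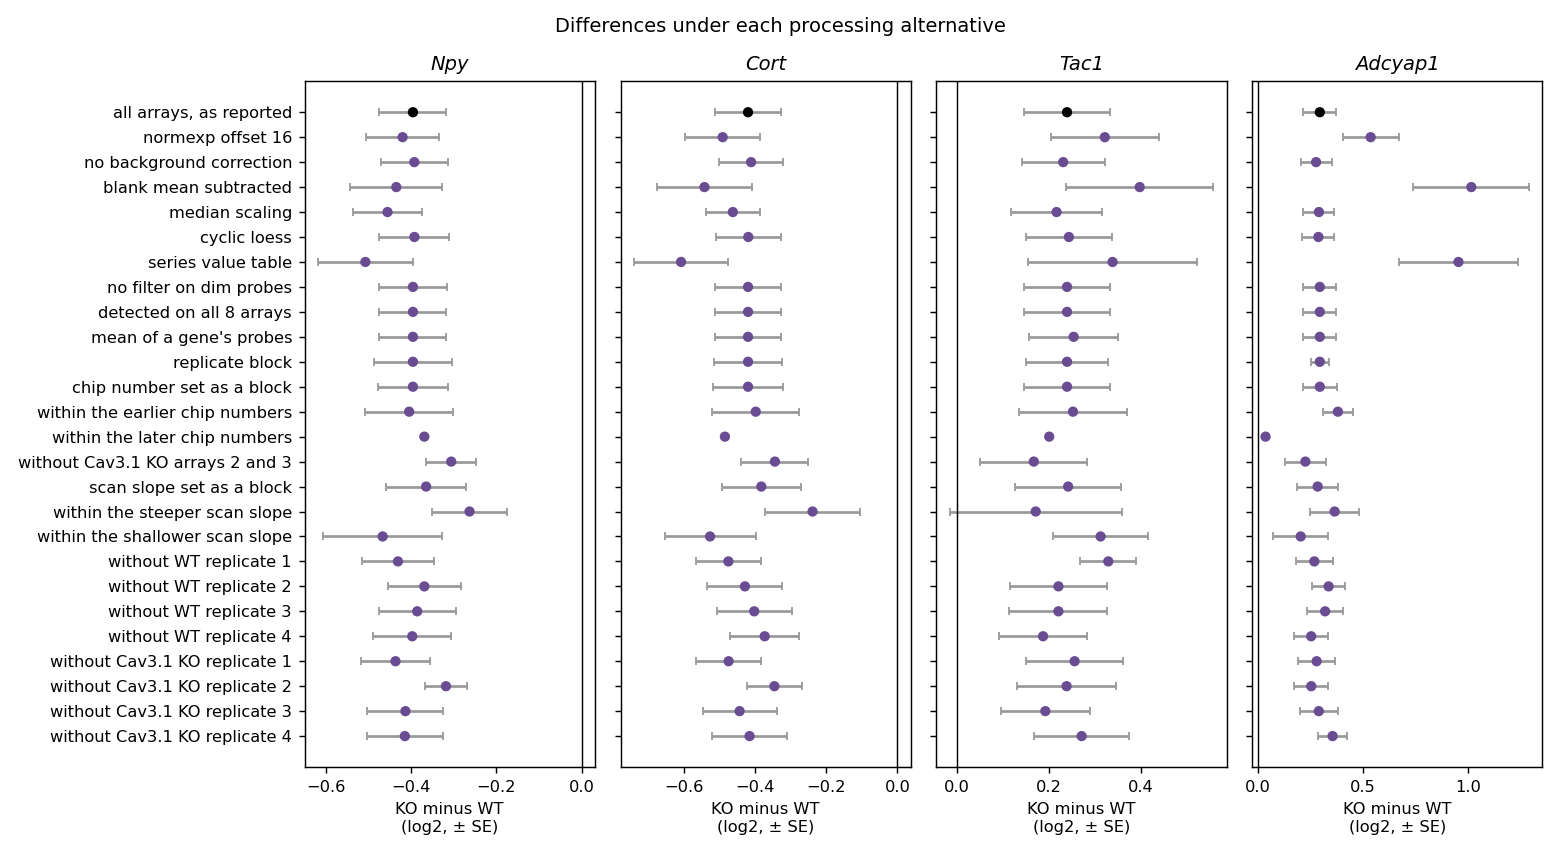
Difference between Cav3.1 KO and WT in log2 intensity (horizontal axis, bars show the SE) for Npy, Cort, Tac1 and Adcyap1 under each alternative processing or choice of arrays (rows), with the reported value in black. The point without a bar compares 2 arrays. Npy ran from -0.51 to -0.26, Cort from -0.61 to -0.24, Tac1 from 0.17 to 0.40 and Adcyap1 from 0.038 to 1.02.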

How the data were processed

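Spot intensities were deposited by the authors as 1 scanner file per array and are median intensities at 635 nm, not normalised, per the file headers. Amplified RNA carried Cy5, per the labels' protocols; the sources used here do not say how the 3 scan gains were merged. A column headed as background followed its own spot (r of logarithms 0.994 to 0.996) and was not subtracted. The authors' value table holds intensities with a median of 25 per array, linear in the spot intensity with 0 near the mean blank spot, and served as an alternative; its normalisation is not named.

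Normexp (offset 50) was fitted to all spots, probes were averaged, and log2 values were quantile normalised. Probes above the 95th percentile of blank spots on at least 4 arrays and without a bad flag were kept, 21150 of 23473. The group test was lmFit and eBayes of limma 3.58.1 (R 4.3.3), with Benjamini-Hochberg adjustment and a threshold of 0.05, and with exact two-sided permutation tests over 70 arrangements. The fit was tested on simulated data with independent noise for each probe and array. Those data held no scan slope sets, chip sets or variation of tissue. The offset understates changes of dim genes. The number of arrays limits the precision.

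All 10 members were named; from other lists, genes past the threshold and the 3 with the smallest p were named, and from marker lists the defining ones. Pnoc, Tac2, Slc17a6 and Gpr151 were named after their values were seen. Members, lists and the choice of arrays to leave out were made with earlier results of these data known. The scan slope sets were chosen after seeing the files. Same-numbered arrays did not deviate together (r from -0.11 to 0.01), so numbers were not treated as pairs. RefSeq gene identifiers matched 10 of 10 members, and promoters are those of RefSeq on GRCm38.p6. Alternatives varied background, normalisation, filter, probes, blocks and arrays.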

Additional observations from a re-analysis of the deposited data

How the results depend on the processing

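For the 10 members, 0 passed by limma under every alternative run. Npy, Cort, Cck, Tac1 and Adcyap1 kept their direction under all 25, and with a single array left out Npy ran from -0.44 to -0.32, Cort from -0.48 to -0.35, Tac1 from 0.19 to 0.33 and Adcyap1 from 0.25 to 0.36. Limma adjusted p-values over the tested alternatives ran from 0.0933 to 0.675 for Npy, from 0.0783 to 0.675 for Cort and from 0.143 to 0.848 for Adcyap1.

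The differences of the other 5, none past an unadjusted p of 0.05 as reported, changed sign under some alternatives, and the cause was not tested. Within the steeper scan slope Sst was at 0.12 and Penk at 0.25, within the shallower one Sst was at -0.45, Pdyn at 0.057 and Vgf at 0.034, and with the scan slope as a block Penk was at 0.022. Scg2 was at -0.037 within the earlier chip numbers and at 0.50 between the 2 later chips, Vgf at 0.016 with median scaling, and Sst at 0.17 without Cav3.1 KO replicates 2 and 3. With a single array left out Sst ran from -0.31 to 0.02, Pdyn from -0.095 to 0.063, Penk from -0.40 to -0.0054, Vgf from -0.027 to 0.011 and Scg2 from -0.0063 to 0.32. Vgf had too few values in the authors' table for a fit.

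The number of probes called, 61 as reported, was 80 with a normexp offset of 16 and 61 with cyclic loess. It was 36 with median scaling, 31 in the value table and 23 with the scan slope as a block. Where fewer arrays were compared, it was 17 without Cav3.1 KO replicates 2 and 3 and 7 within the earlier chip numbers. With a single array left out it ran from 16 to 49. With the replicate block it was 8, but the numbers pair no samples in the labels. Of the genes in the lists of other precursors, granins, enzymes, vesicle genes, receptors, CREB pathway and immediate early genes, marker lists not counted, 2 were called, Nppc and Oprl1. This count was 1 after blank subtraction, with median scaling, in the value table and with the chip number as a block, 0 in the replicate block, within the earlier chip numbers, without Cav3.1 KO replicates 2 and 3, with the scan slope as a block and within each scan slope, and 0 to 3 with a single array left out. The cause of these shifts was not tested. Signal over background limits Vgf and Adcyap1 most.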
